A study of Mus musculus with 9 samples.

Results

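Feedback regulators of receptor tyrosine kinase and MAPK signalling were followed across sorted intestinal epithelium of Lgr5-2A-eGFP mice. The 8 members were the rows of the count table named Etv4, Etv5, Dusp6, Spry2, Spry4, Errfi1, Lrig1 and Spred1, which are 8 of the 78239 genes listed. Each symbol belonged to a single gene ID, every member had at least 10 reads in each library, and all 8 passed the filter on low counts. All mice were 8 weeks old and carried the reporter, in which GFP follows the expression of Lgr5, a receptor of intestinal stem cells. The 9 polyadenylated RNA libraries comprised 3 from GFP-high cells of the colon, 3 from GFP-negative cells of the colon and 3 from small intestine. Crypts were released by chelation, dissociated with TrypLE and sorted on GFP, with a minimum of 30000 colon cells and 50000 small intestinal cells per fraction. Which GFP fraction the small intestinal samples represent is not stated in the labels, so region and fraction cannot be told apart in comparisons with them. The labels also do not say whether libraries came from separate animals, so the p-values reflect only how far these samples differ among themselves, which may be technical.

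Growth factors such as EGF bind receptor tyrosine kinases on crypt cells and activate RAS, RAF, MEK and the kinase ERK, which drives proliferation. Active ERK induces transcription of its own inhibitors, so the RNA levels of such genes are commonly read as a record of pathway output. Among the members, Lrig1 is a membrane protein that lowers the amount of ErbB receptors and also marks crypt stem and progenitor cells. Errfi1 (also called Mig6) binds and inhibits the EGF receptor kinase domain. Spry2, Spry4 and Spred1 act between receptor and RAF, and Dusp6 is a phosphatase that removes the activating phosphates from ERK. Etv4 and Etv5 are ETS transcription factors of the PEA3 group that are induced by ERK.

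Promoter windows of RefSeq on GRCm38.p6, which run from 250 bases before to 50 bases after a start site, were matched by symbol for 6 of the 8 members, in 8 windows. Both windows of Etv5 are shown because Etv5 was the single member called between regions, and that of Lrig1 because Lrig1 varied together with Lgr5 in the colon. Sequences read 5′ to 3′ along the gene's strand, and capitals mark CCAAT or its reverse complement ATTGG, a common promoter element that was searched after the sequences were seen.
Etv5, first window, minus strand, chr16:22439521-22439820: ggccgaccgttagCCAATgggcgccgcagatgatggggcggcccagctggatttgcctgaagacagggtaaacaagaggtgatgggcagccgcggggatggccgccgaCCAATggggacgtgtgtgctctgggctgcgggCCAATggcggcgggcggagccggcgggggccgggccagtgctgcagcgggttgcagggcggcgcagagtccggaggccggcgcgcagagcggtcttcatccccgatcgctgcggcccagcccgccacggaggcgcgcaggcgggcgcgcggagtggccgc
Etv5, second window, minus strand, chr16:22438319-22438618: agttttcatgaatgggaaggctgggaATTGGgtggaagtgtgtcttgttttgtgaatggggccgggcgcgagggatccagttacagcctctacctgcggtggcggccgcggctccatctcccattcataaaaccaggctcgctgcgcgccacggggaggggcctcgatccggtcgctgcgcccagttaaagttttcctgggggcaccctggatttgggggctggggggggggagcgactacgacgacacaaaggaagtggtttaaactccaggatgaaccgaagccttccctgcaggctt
Lrig1, minus strand, chr6:94700096-94700395: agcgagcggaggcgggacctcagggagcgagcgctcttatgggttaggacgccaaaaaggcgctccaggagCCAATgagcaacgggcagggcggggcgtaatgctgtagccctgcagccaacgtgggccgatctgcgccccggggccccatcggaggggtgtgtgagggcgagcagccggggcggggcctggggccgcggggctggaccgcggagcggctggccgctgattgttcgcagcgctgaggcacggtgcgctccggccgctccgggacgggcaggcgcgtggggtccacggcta
The first Etv5 window held CCAAT at 3 places, which begin 237, 142 and 110 bases before the start site. At least 1 match on either strand was found in 37.4% of the 32851 RefSeq windows of this length, and at least 3 in 3.37%. The ETS core CCGGAA (reverse complement TTCCGG) and the TCF/LEF core CTTTGA (reverse complement TCAAAG) were in none of these 3 windows. In the 8 windows used the ETS core occurred once, in Spry2, and the TCF/LEF core once, in Errfi1, against 14.9% and 16.0% of all windows with a match. No searched motifs overlapped in these windows. A match or its lack describes the letters only.

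Lgr5 itself went against the labels in a pair of colon libraries. It had 43.5, 0.958 and 73.0 CPM (counts scaled to a common library size with TMM factors) in GFP-high replicates 1 to 3 and 2.84, 62.1 and 6.28 CPM in GFP-negative replicates 1 to 3. The small intestinal libraries had 57.9, 119.7 and 209 CPM. The comparisons of the members are therefore also given without both colon replicate 2 libraries. Library totals lay between 86621513 and 106673547 counts, at which 3 counts make at most 0.0411 CPM. All 9 epithelial markers (among them Epcam, Cdh1 and Krt8) had counts in every library, summing to 12342 to 25503 CPM in GFP-high, 16605 to 26730 CPM in GFP-negative and 14313 to 28288 CPM in small intestine. Other cells also contributed: the 12 leukocyte markers summed to 2.44, 304 and 20.4 CPM in GFP-high replicates 1 to 3, to 594, 4.14 and 2810 CPM in GFP-negative and to 49.8, 15.5 and 42.4 CPM in small intestine. The 8 stromal markers summed to 5.69, 18.5 and 8.29 CPM in GFP-high replicates 1 to 3 and to 12.0, 4.17 and 59.5 CPM in GFP-negative. In small intestine they summed to 8.17, 2.41 and 3.90 CPM. Of these markers, the collagens Col1a1, Col1a2 and Col3a1 were under 1 CPM in every library.

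Per length, the members fell into an upper and a lower set. Mean RPKM over the 9 libraries (CPM per kilobase of gene length) was 12.4 for Lrig1, 11.7 for Dusp6, 10.9 for Etv5 and 10.5 for Errfi1. Etv4 followed with 2.97 RPKM and Spred1 with 1.97 RPKM, and the lowest were Spry2 with 0.630 RPKM and Spry4 with 0.188 RPKM. The order depended on region. In small intestine Lrig1 led with 13.7 ± 5.76 RPKM (SD, n = 3 here and below), ahead of Errfi1 at 7.46 ± 1.66 RPKM, Dusp6 at 6.03 ± 4.12 RPKM and Etv5 at 2.74 ± 1.81 RPKM. In colon GFP-high the upper set lay within its spread, at 15.7 ± 4.93 RPKM for Etv5, 13.8 ± 1.66 RPKM for Dusp6, 12.7 ± 7.45 RPKM for Errfi1 and 12.5 ± 6.80 RPKM for Lrig1.

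**Figure D1:**
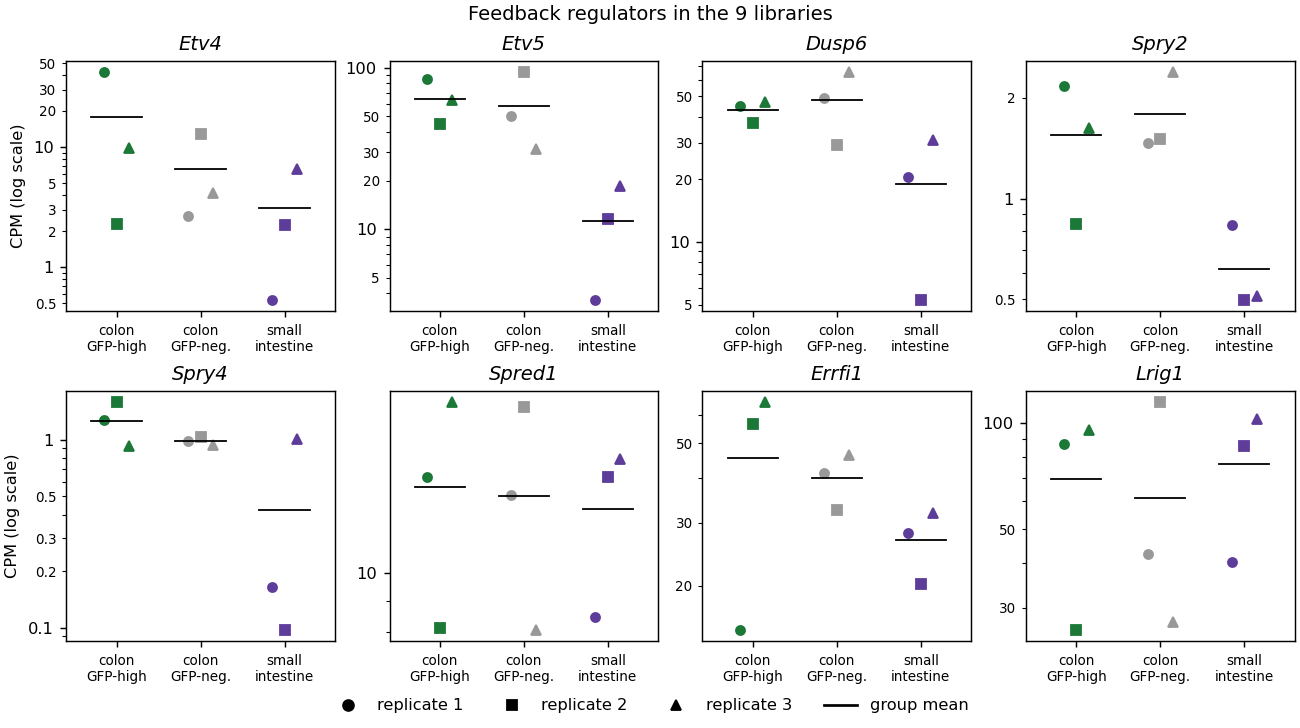
CPM (log axis) of the 8 feedback regulators in each library, ordered from left to right as GFP-high colon, GFP-negative colon and small intestine; symbols give the replicate number and bars the group mean of 3 libraries. Etv5 and Spry2 are higher in all 6 colon libraries than in any small intestinal library, while the colon fractions overlap for every gene.

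The regional comparison asked which regulators differ between colon and small intestinal epithelium. Etv5 was the member that passed the test: it was 5.45-fold higher in the colon over both fractions and 5.74-fold higher in colon GFP-high. The other members with higher estimates in the colon, Etv4, Spry4, Spry2, Dusp6, Errfi1 and Spred1, did not pass, and Lrig1 had an estimate below 0. In this bulk design, fewer cells of a type and less RNA per cell cannot be told apart. In edgeR's quasi-likelihood test, 1 of 8 members was called higher and none lower for the colon over both fractions, where 5% of the 20610 genes tested were called higher and 3.79% lower (Benjamini-Hochberg adjusted p under 0.05 over all genes). In GFP-high cells of the colon alone it was likewise 1 of 8 against small intestine, with 3.94% of genes called higher and 1.75% lower. The median log2 fold change of the members was 1.33 over both colon fractions and 1.26 in GFP-high, beside -0.0003 and 0.02 for all genes tested. Both comparisons share the small intestinal libraries. Without the colon replicate 2 pair the log2 fold changes in GFP-high over small intestine were 3.04 for Etv4, 1.63 for Spry2, 1.38 for Spry4, 1.29 for Dusp6, 0.58 for Errfi1 and 0.39 for Spred1, none of them called in edgeR.

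Markers of stem cells and of differentiated cells also differed between the regions. The 10 stem cell markers, Lgr5 among them, summed to 289 to 1478 CPM in GFP-high and 232 to 1439 CPM in GFP-negative. In small intestine they summed to 6011 to 11494 CPM. Such a sum follows mainly its most abundant genes. Over both colon fractions all 10 had estimates below 0, with a median log2 fold change of -1.56. In edgeR 2 were called lower, where 3.79% of all genes were. The 7 Paneth cell markers summed to 28.7 to 5099 CPM in GFP-high, 402 to 3455 CPM in GFP-negative and 16137 to 26004 CPM in small intestine, and 6 of 7 were called lower over both colon fractions in edgeR. Of 9 enterocyte markers 8 were called lower. Of 8 goblet cell markers 4 were called higher, with sums of 7101 to 41121 CPM in GFP-high, 13372 to 44414 CPM in GFP-negative and 1585 to 19013 CPM in small intestine. The part of these cells in the regional values of the members was not tested.

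Etv5 (ENSMUSG00000013089.16, minus strand, GRCm38 chromosome 16, 22381309 to 22439719 in GENCODE M21) had 85.3, 44.9 and 63.1 CPM in GFP-high colon cells, against 50.1, 93.5 and 31.3 CPM in GFP-negative colon cells. The small intestinal libraries had 3.65, 11.6 and 18.5 CPM. Every colon library thus lay above every small intestinal one, and the lowest colon value was that of GFP-negative replicate 3. The log2 fold change was 2.45 ± 0.57 (SE) for the colon over both fractions (adjusted p = 0.0313 in edgeR) and 2.52 ± 0.61 for GFP-high (adjusted p = 0.0489). It stayed above 0 in all 20 alternative analyses of GFP-high, ranging from 2.10 to 3.06 (adjusted p from 0.000338 to 0.263), and in all 19 of the colon over both fractions, from 2.03 to 2.98 (adjusted p from 3.00e-05 to 0.281). Without the colon replicate 2 pair the log2 fold changes were 2.29 ± 0.55 over both fractions and 2.73 ± 0.61 in GFP-high. Neither passed in edgeR (adjusted p = 0.0627 and 0.0799), which called 3.03% and 1.79% of genes higher. DESeq2 without the pair, a setting added after the data were seen, called both, with 7.79% and 4.96% of genes called higher. The call over both fractions was also lost without GFP-high replicate 1 or 3, GFP-negative replicate 1, small intestine replicate 1 or small intestine replicate 2 (adjusted p = 0.0561 to 0.0999). With the replicate number as a block it was lost in both comparisons (adjusted p = 0.0990 over both fractions and 0.136 in GFP-high), as it was with the tag of the library names as a block (0.281 and 0.263) and with total-count scaling (0.0703 and 0.0920). For GFP-high it was kept without GFP-negative replicate 3 and lost without each other library (adjusted p up to 0.130).

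Etv4 (ENSMUSG00000017724.15, minus strand, chromosome 11, 101769742 to 101785371) was the most variable member, with a 78.0-fold range over the 9 libraries. It had 41.7, 2.31 and 9.76 CPM in GFP-high, against 2.64, 12.8 and 4.18 CPM in GFP-negative, with 0.535, 2.26 and 6.62 CPM in small intestine. GFP-high replicate 1 was alone above 13 CPM, and the groups overlapped. Its log2 fold change in GFP-high over small intestine was 2.52 ± 1.18 (adjusted p = 0.273 in edgeR), the same size as that of Etv5 with a larger error, and 0.99 without GFP-high replicate 1. DESeq2 without the colon replicate 2 pair, which called 4.96% of genes higher, called it there (3.05 ± 0.94, adjusted p = 0.0158); with all libraries DESeq2 called 8.38% of genes higher but not Etv4. The left-out pair in DESeq2 was a setting added after the data were seen.

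Spry2 and Spry4 had the lowest levels of the members, and neither passed the main regional test. Spry2 (ENSMUSG00000022114.6, minus strand, chromosome 14, 105891947 to 105896819) had 2.17, 0.838 and 1.63 CPM in GFP-high and 1.46, 1.51 and 2.38 CPM in GFP-negative, against 0.836, 0.498 and 0.511 CPM in small intestine. The regions did not overlap, although GFP-high replicate 2 and small intestine replicate 1 were almost equal. Its log2 fold change over both colon fractions was 1.43 ± 0.49 (adjusted p = 0.113 in edgeR), and DESeq2, which called 10.9% of genes higher, called it with all libraries (1.47 ± 0.48, adjusted p = 0.0148) and, with 7.79% called higher, without the colon replicate 2 pair. Spry4 (ENSMUSG00000024427.8, minus strand, chromosome 18, 38586247 to 38601415) lay within 0.931 to 1.59 CPM in GFP-high against 0.944 to 1.04 CPM in GFP-negative, the narrowest range of the members in that group. The small intestinal libraries had 0.165, 0.0976 and 1.01 CPM, so that replicate 3 was inside the colon range and the other two far below it. The log2 fold change over both fractions was 1.39 ± 0.77 (adjusted p = 0.298). Without small intestine replicate 3 it was 3.08 ± 0.61 and was called (adjusted p = 0.0333, from 0.0333 to 0.672 over its alternatives), as was that of GFP-high (3.26 ± 0.64, adjusted p = 0.0455 in edgeR).

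Dusp6 (ENSMUSG00000019960.9, plus strand, chromosome 10, 99263231 to 99267489) had 45.2, 37.3 and 47.2 CPM in GFP-high and 49.0, 29.2 and 65.1 CPM in GFP-negative. The small intestinal libraries had 20.5, 5.26 and 30.9 CPM, and the highest of these lay above GFP-negative replicate 2 and below every GFP-high library. Its log2 fold change was 1.27 ± 0.51 over both fractions (adjusted p = 0.165 in edgeR) and 1.19 ± 0.56 in GFP-high (adjusted p = 0.275), where it was 1.77 without small intestine replicate 3 and 0.77 without replicate 2. Errfi1 (ENSMUSG00000028967.11, plus strand, chromosome 4, 150853919 to 150868892) had 15.1, 56.5 and 65.0 CPM in GFP-high, against 41.3, 32.6 and 46.2 CPM in GFP-negative, with 28.0, 20.2 and 31.9 CPM in small intestine. GFP-high replicate 1 was the lowest of the 9 libraries for Errfi1 and the highest for Etv4, and the other 5 colon libraries lay above all small intestinal ones. Its log2 fold change over both fractions was 0.67 ± 0.42 (adjusted p = 0.357 in edgeR). Without GFP-high replicate 1 that of GFP-high was 1.21, against 0.76 with all libraries, and not called in edgeR (adjusted p = 0.0692, from 0.0692 to 0.733 over its alternatives).

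For Lrig1 and Spred1 the regional difference was smaller than the spread between libraries. Lrig1 (ENSMUSG00000030029.15, minus strand, chromosome 6, 94604529 to 94700158) had 87.1, 26.0 and 95.6 CPM in GFP-high, against 42.5, 114.6 and 27.3 CPM in GFP-negative, with 40.4, 85.9 and 102.6 CPM in small intestine. High and low libraries occurred in each group. Its log2 fold change over both fractions was -0.22 ± 0.55 (adjusted p = 0.840 in edgeR), and in GFP-high it was -0.13 ± 0.64, or 0.26 without the colon replicate 2 pair. Spred1 (ENSMUSG00000027351.15, plus strand, chromosome 2, 117121374 to 117182279) lay between 8.11 and 19.1 CPM in GFP-high, against 8.07 and 18.7 CPM in GFP-negative, with 8.46 and 15.4 CPM in small intestine, a 2.36-fold range over all libraries that was the smallest of the members. Its log2 fold change over both fractions was 0.09 ± 0.37 (adjusted p = 0.905), and its sign turned without single libraries.

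**Figure D2:**
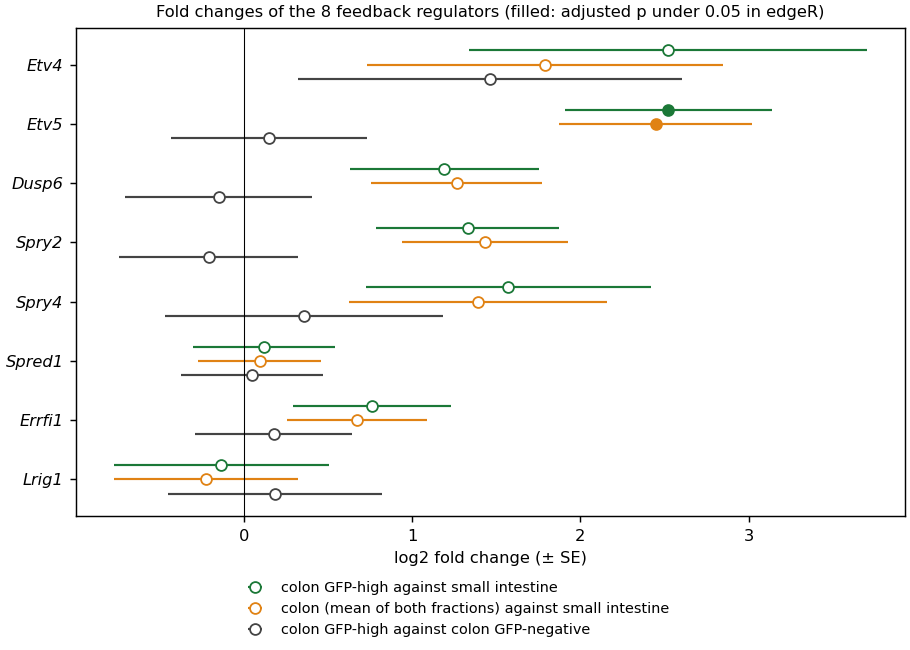
Log2 fold changes with SE from the edgeR fit of all 9 libraries for each member in 3 comparisons; filled points passed an adjusted p of 0.05. Etv5 is filled in both comparisons with small intestine, and no point is filled between the colon fractions, where the estimates lie between -0.21 and 1.46.

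Over both fractions, 2 of 8 members (Etv5 and Spry2) were higher in every colon library than in any small intestinal one, where 9.49% of all genes tested were. For GFP-high alone it was 3 of 8 (Etv5, Spry2 and Dusp6), where 14.2% of all genes were. Without the colon replicate 2 pair these counts were 3 of 8 over both fractions (Dusp6 added), where 10.7% of genes were, and 4 of 8 for GFP-high (Etv4 added), where 17.5% were. The small intestinal libraries themselves differed. Replicate 1 was lowest of the 9 libraries for Etv5 and Etv4. Replicate 2 was lowest of the 9 libraries for Dusp6, Spry2 and Spry4, at 5.26, 0.498 and 0.0976 CPM. The 9 enterocyte markers summed to 37863, 589 and 8644 CPM in small intestine replicates 1 to 3. Stem cell markers there summed to 6011, 11494 and 9943 CPM. The part of these cells in the results was not tested.

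Between the colon fractions, a comparison of reporter-bright with reporter-negative cells, no member passed and no group stood apart. With the libraries as labelled, Etv4 averaged 17.9 ± 20.9 CPM in GFP-high against 6.56 ± 5.50 CPM in GFP-negative (log2 fold change 1.46 ± 1.14 SE), a difference that was -0.11 without GFP-high replicate 1. Etv5 averaged 64.4 ± 20.2 CPM in GFP-high against 58.3 ± 31.9 CPM in GFP-negative (0.15 ± 0.58). Lrig1 averaged 69.6 ± 38.0 CPM in GFP-high against 61.4 ± 46.6 CPM in GFP-negative (0.19 ± 0.64). Estimates for Spry4, Errfi1 and Spred1 were 0.36 ± 0.83, 0.18 ± 0.47 and 0.05 ± 0.42, and those for Dusp6 and Spry2 -0.15 ± 0.55 and -0.21 ± 0.53. In edgeR 0 of 8 members were called (adjusted p = 1 for each), where 0% of all genes were. No member was without overlap, where 2.81% of genes were higher and 1.59% lower without overlap. At an unadjusted p under 0.05 edgeR had 0 members and 226 genes (1.1%), limma-voom had 226 genes and DESeq2 406. At an adjusted p under 0.05 limma-voom called 0 genes and DESeq2 1 gene (0.00485%), no member.

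Without the colon replicate 2 pair, 2 libraries per fraction remained and the largest estimates were those of Etv4 and Lrig1. Etv4 was then 2.91 ± 1.15 on the log2 scale (adjusted p = 0.629 in edgeR) and Lrig1 1.39 ± 0.48 (adjusted p = 0.541). Etv5 had 0.87 ± 0.67, Spred1 0.64 ± 0.44 and Spry4 0.19 ± 1.17, while Dusp6, Errfi1 and Spry2 had -0.31 ± 0.69, -0.14 ± 0.61 and -0.02 ± 0.69. No member was called, either in edgeR, which called 0% of genes (1582 at an unadjusted p under 0.05), or in DESeq2, which called 3.22% of genes and gave adjusted p = 0.111 for Etv4 and 0.218 for Lrig1. Since Lgr5 was the reason for leaving the pair out, genes that vary with Lgr5 gain a larger estimate by that choice.

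Among the colon libraries, 4 of the 8 members were highest in the same libraries as the reporter gene. For Lrig1, Etv4, Etv5 and Spred1 the 3 highest colon libraries were GFP-high replicates 1 and 3 and the library labelled GFP-negative replicate 2, which were also the 3 highest for Lgr5. The same held for 12.3% of all genes tested. For Lrig1 the lowest of these 3 libraries had 87.1 CPM and the highest of the other 3 had 42.5 CPM, and for Etv4 these values were 9.76 and 4.18 CPM. The gap was smaller for Etv5, at 63.1 and 50.1 CPM, and for Spred1, at 14.4 and 13.4 CPM. Dusp6, in contrast, was lowest in the library labelled GFP-negative replicate 2 and highest in GFP-negative replicate 3. Errfi1 was highest in GFP-high replicates 3 and 2, and Spry2 in GFP-negative replicate 3. These are descriptions of 6 libraries, with no test.

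Several lists of markers of mature and non-epithelial cells were ordered by the same libraries, and others were not. Beside the leukocyte sums given above, 10 colonocyte markers summed to 2599, 30747 and 13416 CPM in GFP-high replicates 1 to 3, against 18238, 7672 and 34145 CPM in GFP-negative replicates 1 to 3. The 10 enteroendocrine markers summed to 676, 12710 and 493 CPM in GFP-high, against 3667, 224 and 3587 CPM in GFP-negative. All 3 sums were thus higher in the library labelled GFP-high replicate 2 and in GFP-negative replicates 1 and 3, where Lgr5 and Lrig1 were low, than in the other 3 colon libraries, as were those of goblet, enterocyte and stromal markers. The 10 stem cell markers, Lgr5 among them, went the other way, with 1016, 289 and 1478 CPM in GFP-high, against 390, 1439 and 232 CPM in GFP-negative. Tuft, Paneth and endothelial markers did not follow this order. Tuft markers summed to 147, 388 and 580 CPM in GFP-high, against 125, 103 and 180 CPM in GFP-negative. Paneth markers summed to 28.7, 5099 and 159 CPM in GFP-high, against 402, 679 and 3455 CPM in GFP-negative. Endothelial markers were highest in GFP-high replicate 3, at 12.4 CPM. The part of these cells in the levels of the members was not tested.

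**Figure D3:**
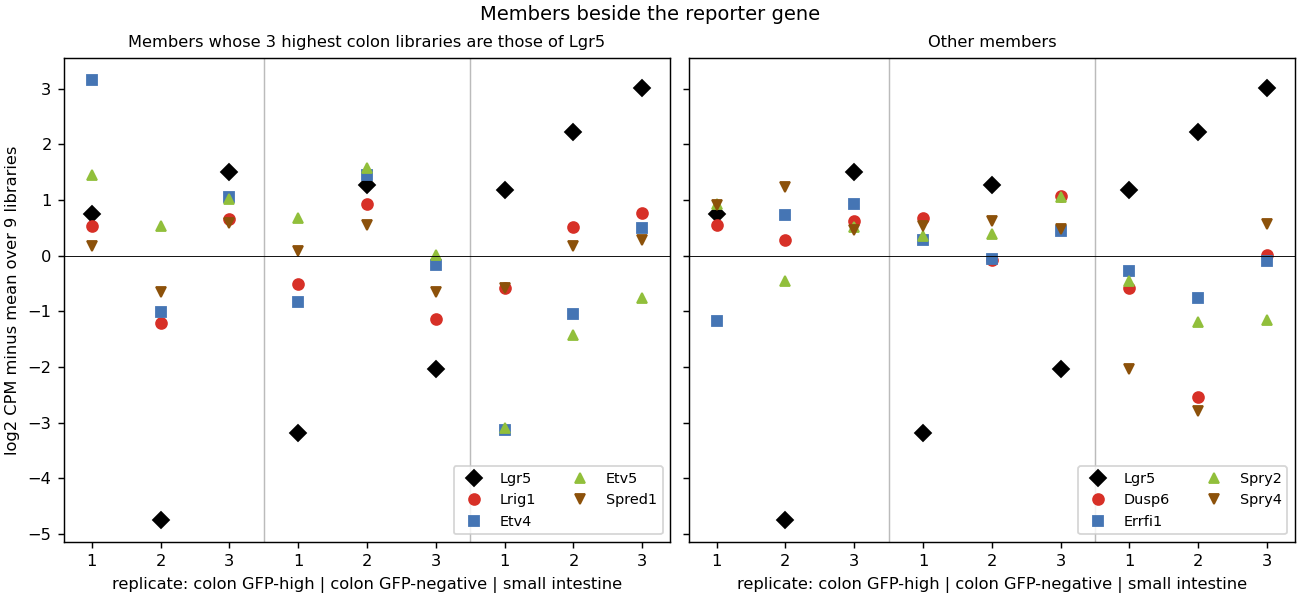
Log2 CPM of each member and of Lgr5 (black diamonds) minus the gene's mean over the 9 libraries, by library, ordered from left to right as GFP-high colon, GFP-negative colon and small intestine. Left, Lrig1, Etv4, Etv5 and Spred1 are highest of the colon libraries where Lgr5 is, while in small intestine Etv5 lies below its mean and Lgr5 above; right, the other members do not share the 3 highest colon libraries of Lgr5.

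The regulators did not form a single pattern. Likeness was measured as the root mean square difference between the log2 CPM of 2 genes over the 9 libraries, after each was centred on its own mean. The closest pair of members was Lrig1 and Spred1 (0.41), followed by Dusp6 and Spry4 (0.66) and by Dusp6 and Spry2 (0.68). Etv4 and Etv5, related in sequence, stood at 1.02, and the farthest pair was Etv4 and Errfi1 (1.94). Against 10265 or, for Spry2 and Spry4, 10266 other genes averaging 5 CPM or more over the libraries, the genes most like Etv5 were Chrnb4 (0.26) and Slc1a4 (0.31), where the median gene stood at 1.55. Slc1a4 had 47.1, 42.7 and 60.5 CPM in GFP-high, against 30.7, 64.5 and 20.3 CPM in GFP-negative, with 3.29, 7.78 and 18.9 CPM in small intestine. Nearest to Lrig1 were Wipi1 (0.20) and Phgdh (0.23), to Spred1 Prkd3 (0.14) and Ivd (0.16), and to Etv4, at a larger distance, Fstl4 (0.82) and Rgcc (0.84). Nearest to Dusp6 were Ablim1 and Tpcn1 (0.38 each), to Spry2 Tmt1a (0.32) and Map1lc3a (0.33), to Spry4 Slc2a10 (0.43) and Atp2a3 (0.44), and to Errfi1 Hmgcs1 (0.28) and Kdm5d (0.29). All of these libraries share the regional difference and the spread described above.

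Upstream in the pathway, Erbb2, Erbb3 and Met were lower in the colon while Kit was higher. Of 14 receptors listed 12 were tested, and over both colon fractions 1 was called higher and 3 lower (median log2 fold change 0.18 against -0.0003 for all genes). Among all genes tested 5% were called higher and 3.79% lower. Kit, a receptor for stem cell factor, had 32.3, 40.6 and 45.2 CPM in GFP-high and 44.7, 44.0 and 43.8 CPM in GFP-negative, against 6.13, 10.2 and 16.0 CPM in small intestine (log2 fold change 1.95 ± 0.31, adjusted p = 0.00646 in edgeR). Over both fractions its call held without each library in turn, and 1 of its 19 alternatives lost it. Erbb3, the ErbB receptor with a largely inactive kinase, averaged 40.8 ± 7.14 CPM in the 6 colon libraries and 87.0 ± 19.6 CPM in small intestine (-1.09 ± 0.22, adjusted p = 0.0165 in edgeR). Erbb2 averaged 48.0 ± 6.99 CPM in colon and 78.6 ± 5.88 CPM in small intestine (-0.71 ± 0.18, adjusted p = 0.0435), and Met, the receptor of hepatocyte growth factor, 8.20 ± 1.72 CPM in colon and 16.1 ± 1.77 CPM in small intestine (-0.97 ± 0.24, adjusted p = 0.0386). For GFP-high alone, Kit (1.86 ± 0.34, adjusted p = 0.0156) and Erbb3 (-1.16 ± 0.26, adjusted p = 0.0386) were called. With single libraries left out these GFP-high calls held in 7 of 9 cases for Kit (lost without GFP-high replicate 2 or small intestine replicate 2, adjusted p up to 0.0534) and 2 of 9 for Erbb3 (kept without GFP-negative replicate 3 or small intestine replicate 2, adjusted p up to 0.149), and neither held in edgeR without the colon replicate 2 pair (adjusted p = 0.0818 for Kit and 0.206 for Erbb3). Without each library in turn Erbb2 was never called over both fractions (adjusted p = 0.0651 to 0.154), Met in 2 of 9 cases and Erbb3 in 7 of 9.

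Of 15 ligands 12 were tested and 1 was called lower in the colon (median -0.08), where 3.79% of all genes were. Nrg4, a neuregulin that binds Erbb4, averaged 3.58 ± 1.42 CPM in the 6 colon libraries and 10.8 ± 2.68 CPM in small intestine (log2 fold change -1.61 ± 0.37, adjusted p = 0.0300 in edgeR). Erbb4 itself had at most 0.0372 CPM in any library and was not tested. All 21 adaptor and cascade genes were tested and 2 were called lower (median -0.31). They were Map2k2, which encodes MEK2, at 254 ± 24.9 CPM in colon and 416 ± 41.6 CPM in small intestine (-0.71 ± 0.17, adjusted p = 0.0316 in edgeR), and the scaffold gene Ksr1. Ksr1 had 1.63 ± 0.710 CPM in colon and 6.26 ± 3.21 CPM in small intestine (-1.94 ± 0.48, adjusted p = 0.0386 in edgeR). Its regions overlapped, with 2.73 CPM in small intestine replicate 2 and 3.00 CPM in GFP-negative replicate 3. Of 25 output genes 1 was called higher (median 0.08), a share near the 5% of all genes called higher. Plaur, the urokinase receptor gene, averaged 25.5 ± 18.9 CPM in colon and 2.75 ± 1.33 CPM in small intestine (3.19 ± 0.67, adjusted p = 0.0202 in edgeR), with its highest value, 61.5 CPM, in GFP-negative replicate 3, the library richest in leukocyte markers. It was also called for GFP-high (2.88 ± 0.70, adjusted p = 0.0482), a call that held in 2 of 9 cases with single libraries left out (GFP-negative replicate 2 or 3, adjusted p up to 0.168 in edgeR) and not without the colon replicate 2 pair (adjusted p = 0.0739). With single libraries left out, the calls over both fractions held in 7 of 9 cases for Plaur, 3 for Nrg4, 2 for Ksr1 and 0 for Map2k2. Without the pair they held for Plaur and Nrg4 (adjusted p = 0.0230 and 0.0440 in edgeR) and not for Ksr1 and Map2k2 (0.117 and 0.129).

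Other feedback regulators were not called in any comparison. Of 17 listed, 16 were tested, with a median log2 fold change of 0.01 for the colon over both fractions against small intestine. At an unadjusted p under 0.05 in edgeR was 1 of them, Rasa1 (-0.50 ± 0.21). The same held for 5123 of the 20610 genes tested. The most abundant per length were Dusp1 and Spry1. Dusp1, a phosphatase induced by stress and by growth factors, varied from 21.4 to 57.3 CPM in GFP-high, 10.7 to 90.4 CPM in GFP-negative and 10.6 to 81.0 CPM in small intestine (0.18 in colon over both fractions, adjusted p = 0.917 in edgeR), and its sign turned without single libraries. Spry1 averaged 34.6 ± 16.9 CPM in GFP-high, 18.4 ± 6.23 CPM in GFP-negative and 22.3 ± 11.9 CPM in small intestine (0.18 over both fractions, adjusted p = 0.845). Between the colon fractions no gene of the 5 lists was called in edgeR (0 of 86 tested).

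**Figure D4:**
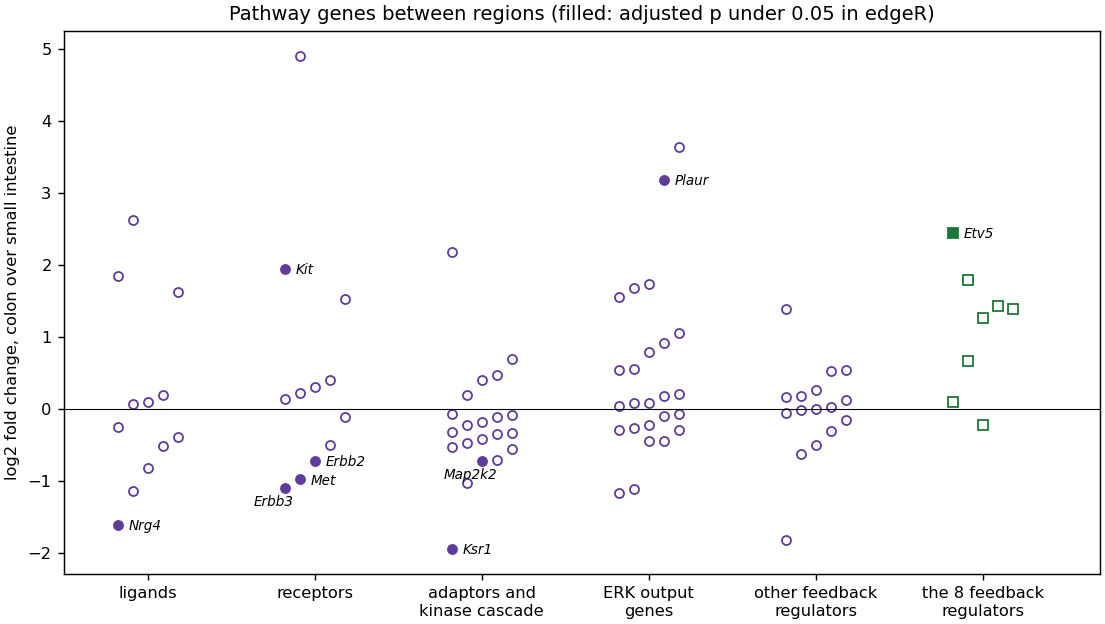
Log2 fold change of colon (mean of both fractions) over small intestine for the tested genes of 5 pathway lists (circles) and the 8 feedback regulators (squares); filled symbols passed an adjusted p of 0.05 in edgeR and are named. Kit, Plaur and Etv5 are the filled symbols above 0, and Nrg4, Erbb2, Erbb3, Met, Map2k2 and Ksr1 those below.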

How the data were processed

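Polyadenylated RNA of 9 libraries was counted per gene. The submitters' processing notes name edgeR, featureCounts, STAR and Subread beside the build mm10; annotation release and strand setting are not given there. Per the file headers, the deposited values are raw read counts of 78239 genes with library totals, a TMM factor per library, which is a ratio, and log2 CPM, log2 RPKM and log2 TPM. Only the counts, totals, factors and gene lengths were used here; factors recomputed from the counts differed from the deposited ones by at most 4.44e-15.

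Levels are CPM on total times TMM factor. Counts were tested in R 4.3.3 with edgeR 4.0.16 (filterByExpr, TMM, glmQLFit over all 9 libraries, two-sided glmQLFTest, Benjamini-Hochberg over the 20610 genes tested, called under 0.05); 57629 genes were not tested. DESeq2 1.42.0, limma-voom 3.58.1, other scalings and filters, left-out libraries and blocks were alternatives. The fit was also run on counts simulated with the spread estimated from these libraries. That simulation held no exchanged or mixed libraries, so it cannot speak to the label conflict of the colon replicate 2 pair. For edgeR, SE is the size of the log2 fold change over the root of its F statistic. For DESeq2 it is the standard error that DESeq2 gives. With a common biological coefficient of variation of 0.726, spread rather than depth set the precision. Replicates differed beyond counting noise (chi-square per gene of 457 or more), and none repeated another.

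The members, lists, comparisons and alternatives were chosen with earlier results of these data known. The text names all members, every pathway gene called (at most 10 a comparison), the 2 most abundant genes of a list without calls, and the 2 genes nearest each member. Coordinates are of GENCODE M21 on GRCm38; promoter sequences are of RefSeq, GRCm38.p6. Reads from overlapping genes cannot be told apart without the strand setting.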

Additional observations from a re-analysis of the deposited data

How the results depend on the processing

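Directions between colon and small intestine held in every alternative for Etv5, Etv4, Dusp6, Spry2, Spry4 and Errfi1; calls did not, and between the colon fractions Spry4 was the one member whose sign held throughout. The cause of the changes below was not tested.

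Genes called for GFP-high against small intestine numbered 1173, against 2713 in DESeq2, 508 without the colon replicate 2 pair, 1868 in DESeq2 without it and 564 to 1375 with single libraries left out. Over both colon fractions the number was 1812, against 3618, 1089, 2845 and 991 to 1787 in the same settings. Between the colon fractions DESeq2 called 1 gene, and 702 without the pair. Of all genes tested, 5.69% were called for GFP-high, against 5.46% with total-count scaling and 13.2% in DESeq2. Without the pair it was 2.33%, and 8.58% in DESeq2. Over both fractions the shares were 8.79%, 8.1%, 17.6%, 5% and 13.1% in the same order. With only the groups compared 5.75% were called for GFP-high. Of the 8 members, 1 was called in each regional comparison, against 0 with total-count scaling, 0 without the pair, 0 with only the groups compared (GFP-high) and 0 to 1 or 0 to 2 with single libraries left out; DESeq2 called 2 over both fractions, and without the pair 2 in each comparison. Pathway list genes called for GFP-high numbered 3 of the 86 tested, against 1 with total-count scaling, 10 in DESeq2 and 0 without the pair. In DESeq2 without the pair they numbered 6, and with single libraries left out 0 to 5. Over both fractions they numbered 8, against 3 without the pair and 1 to 7 with single libraries left out, and between the fractions DESeq2 called 1 without the pair.

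With the replicate number as a block, 508 and 895 genes, 0 members and 1 and 3 pathway genes were called for GFP-high and both fractions against small intestine; blocking on the tag in the library names gave 18 genes in each, 0 members and 0 pathway genes. The labels do not say what a shared number or tag means. The deviations of libraries from their group means correlated at -0.604 to 0.304 between same-numbered libraries and at -0.604 to 0.275 between libraries sharing a tag. The -0.604 in both ranges is the colon replicate 2 pair, in which Lgr5 went against the labels. These values therefore cannot decide whether a number or a tag marks a shared source, and the main fit used no block. With the tag block the log2 fold changes between the colon fractions were -0.21 for Etv5, -0.47 for Spred1, -0.16 for Errfi1 and -0.50 for Lrig1, and that of Spred1 in GFP-high over small intestine was -0.018.

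Other turned signs between the fractions were Dusp6 (0.027, total-count scaling) and Errfi1 (-0.057 in limma-voom, -0.14 without the pair, -0.18 in DESeq2 without it). For GFP-high over small intestine they were Lrig1 (0.26 without the pair, 0.27 in DESeq2 without it) and Dusp1 (-0.048, total-count scaling). Total-count scaling moved the median of all genes between the fractions to 0.13. With single libraries left out the fold changes between the fractions ran from -0.41 to 0.15 for Dusp6, -0.18 to 0.59 for Errfi1, -0.11 to 2.39 for Etv4, -0.15 to 0.66 for Etv5, -0.17 to 0.99 for Lrig1, -0.26 to 0.36 for Spred1 and -0.53 to 0.089 for Spry2. Against small intestine they ran in GFP-high from -0.43 to 1.60 for Dusp1, -0.44 to 0.26 for Lrig1 and -0.15 to 0.39 for Spred1, and over both fractions from -0.39 to 1.73 for Dusp1, -0.63 to 0.028 for Lrig1, -0.13 to 0.24 for Spred1 and -0.18 to 0.57 for Spry1. Group mean levels on total counts moved by less than 1 SD for all members. The comparison of only the groups compared is the same fit for both fractions and was not repeated.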
